A study of Mus musculus with 3 samples.

Results

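The IFITM (interferon-induced transmembrane) family genes Ifitm1, Ifitm2, Ifitm3, Ifitm6 and Ifitm10 were followed across 3 libraries. These 5 genes were taken by symbol from the 19723 genes of the count table. They were chosen by measured values, since Ifitm6 was strongly lower in the alisertib library while other interferon genes were higher. Their values in the comparison of alisertib with control cells are therefore a description. All 5 passed the filter of 1 CPM (counts scaled to a common library size) in at least 1 library, as did 13019 genes in all.

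RNA was sequenced from 3 sorted cell pools, all from BALB/c females that were 6 to 8 weeks old. The first pool held myeloid-derived suppressor cells (MDSCs, immature myeloid cells that restrain T cells) from 20 tumours under alisertib, which inhibits the mitotic kinase Aurora A. The second pool held MDSCs from 20 tumours of control mice, which the labels call both untreated and control treated, and the third held bone marrow neutrophils of 5 wild-type animals. The labels give a sort purity above 90% but neither the sort markers, the tumour line nor the dose. Each group was 1 library, so there was no replicate, no p-value was computed, and every difference is between these libraries. The alisertib, control and bone marrow libraries held 19373087, 21959748 and 21987097 counts. As a check of cell type, all 10 neutrophil markers were detected in each library. Their summed level was 14935 CPM in alisertib MDSCs, 32855 CPM in control MDSCs and 65505 CPM in bone marrow neutrophils. All 9 B cell markers were detected too, at a summed 46.7 CPM in alisertib MDSCs, 6.09 CPM in control MDSCs and 210.6 CPM in bone marrow neutrophils. Of 10 T and NK cell markers, 8 were detected in alisertib MDSCs (summed level 42.2 CPM), 9 in control MDSCs (15.4 CPM) and 9 in bone marrow neutrophils (140.4 CPM). In marrow 136.2 CPM of that sum came from Cd3d alone, and of the 8 that passed the filter 6 were called higher in alisertib MDSCs than in marrow (median log2 ratio 4.02). The part of these cell types in the results below was not tested.

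IFITM proteins are small membrane proteins of the dispanin family, whose members share a CD225 domain. They block the fusion of enveloped viruses with cell membranes. Ifitm3 acts mainly in endosomes and is known for its protection of mice against influenza virus. Interferons bind receptors that act through JAK kinases and STAT factors, and these induce Ifitm1, Ifitm2 and Ifitm3 together with many other antiviral genes. Ifitm6 and Ifitm10 are less studied, and the related Ifitm5 is known for its role in bone-forming cells.

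Ifitm1, Ifitm2, Ifitm3 and Ifitm6 lie in a cluster of 63088 bp on chromosome 7 of GRCm38, between 140954837 and 141017924, and are protein coding. Ifitm2 (ENSMUSG00000060591, 140954837 to 140955987, minus strand) is followed by Ifitm1 (ENSMUSG00000025491, 140967221 to 140969825, plus strand). Ifitm3 (ENSMUSG00000025492, 141009586 to 141010770) and Ifitm6 (ENSMUSG00000059108, 141015699 to 141017924) follow on the minus strand. Ifitm10 (ENSMUSG00000045777, 142325837 to 142373753, minus strand) lies 1307913 bp farther along the same chromosome. Transcripts of the 4 cluster genes were 76.8% to 83.8% identical to each other over the stretches that aligned. No run of 50 bases or more in their longest transcripts was shared exactly with a transcript of another gene. Ifitm2 overlaps the gene model Gm45717 and Ifitm10 overlaps Gm49369, so counts there depend on how overlaps were counted, which is not known.

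Ifitm6 ranged more widely over the libraries than the other 4 genes. Ifitm6 had 879 counts in alisertib MDSCs, 6583 in control MDSCs and 26200 in bone marrow neutrophils, which is 42.3 CPM in alisertib MDSCs, 337.0 CPM in control MDSCs and 1136 CPM in bone marrow neutrophils. Its level was thus lowest in the alisertib library and highest in bone marrow. In bulk pools, fewer cells of a type and less RNA per cell cannot be told apart. In bone marrow neutrophils Ifitm6 ranked 12th of all genes by deposited FPKM (fragments per kilobase of gene, scaled to depth), against 653rd in alisertib MDSCs and 88th in control MDSCs.

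Ifitm1 had the opposite order between marrow and tumour. It had 11628 counts (560.2 CPM) in alisertib MDSCs, 26400 (1352 CPM) in control MDSCs and 2078 (90.1 CPM) in bone marrow neutrophils. Ifitm2 followed the same order, with 8006 counts (385.7 CPM) in alisertib MDSCs, 15119 (774.0 CPM) in control MDSCs and 4561 (197.7 CPM) in bone marrow neutrophils. Ifitm3 varied least among the cluster genes, with 3863 counts (186.1 CPM) in alisertib MDSCs, 5051 (258.6 CPM) in control MDSCs and 6962 (301.8 CPM) in bone marrow neutrophils. Ifitm10 was low throughout, with 154 counts (7.42 CPM) in alisertib MDSCs, 179 (9.16 CPM) in control MDSCs and 70 (3.03 CPM) in bone marrow neutrophils. Ifitm5, which is not among the chosen genes, had 39 counts in alisertib MDSCs, 59 in control MDSCs and 22 in bone marrow neutrophils.

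**Figure D1:**
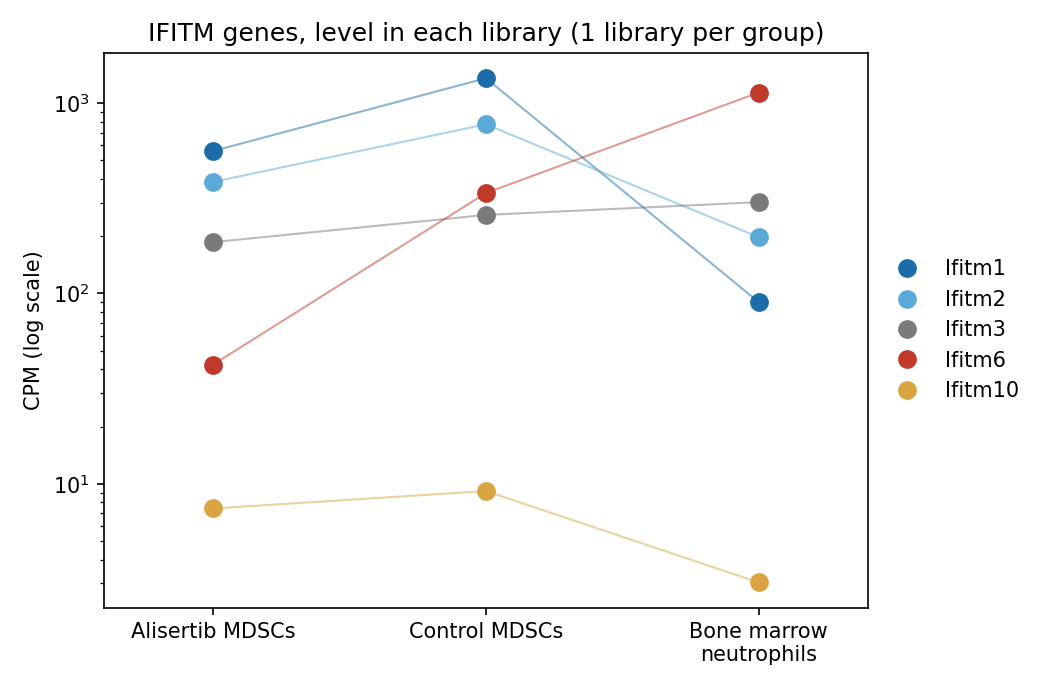
Level of each IFITM gene in CPM (log scale) in alisertib MDSCs, control MDSCs and bone marrow neutrophils, 1 point per library, with lines joining the points of a gene. Ifitm6 stands at 42.3 CPM in alisertib MDSCs, 337.0 CPM in control MDSCs and 1136 CPM in bone marrow neutrophils, while Ifitm1 peaks in control MDSCs at 1352 CPM; levels of different genes are not adjusted for length here.

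The make-up of the family differed between marrow and tumour cells when set side by side per length. The deposited FPKM of the 5 genes summed to 1439 in alisertib MDSCs, 3386 in control MDSCs and 2911 in bone marrow neutrophils. In counts, the family took 0.127% (95% exact binomial interval 0.125% to 0.128%) of the alisertib library, 0.243% (0.241% to 0.245%) of the control library and 0.181% (0.180% to 0.183%) of the bone marrow library. Ifitm6 gave 5.28% of the family's FPKM in alisertib MDSCs, 17.9% in control MDSCs and 71.3% in bone marrow neutrophils. The marrow cells thus carried mostly Ifitm6.

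Ifitm1 gave 34.6% of the family's FPKM in alisertib MDSCs and 35.5% in control MDSCs, but 2.80% in bone marrow neutrophils. Ifitm2 gave 41.5% in alisertib MDSCs, 35.5% in control MDSCs and 10.7% in bone marrow neutrophils. Ifitm3 gave 18.5% in alisertib MDSCs, 11.0% in control MDSCs and 15.1% in bone marrow neutrophils, so its share varied less than those of Ifitm1 and Ifitm6. By FPKM the order in alisertib MDSCs was Ifitm2 (597.4), Ifitm1 (497.3), Ifitm3 (266.6) and Ifitm6 (76.0), with Ifitm10 far below. In control MDSCs Ifitm1 (1203) and Ifitm2 (1202) stood level, ahead of Ifitm6 (606.8), Ifitm3 (371.5) and Ifitm10 (1.86). In bone marrow neutrophils the order was Ifitm6 (2076), Ifitm3 (440.3), Ifitm2 (311.9), Ifitm1 (81.4) and Ifitm10 (0.627). With 1 library per group, no spread is known against which neighbours in these orders could be set.

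**Figure D2:**
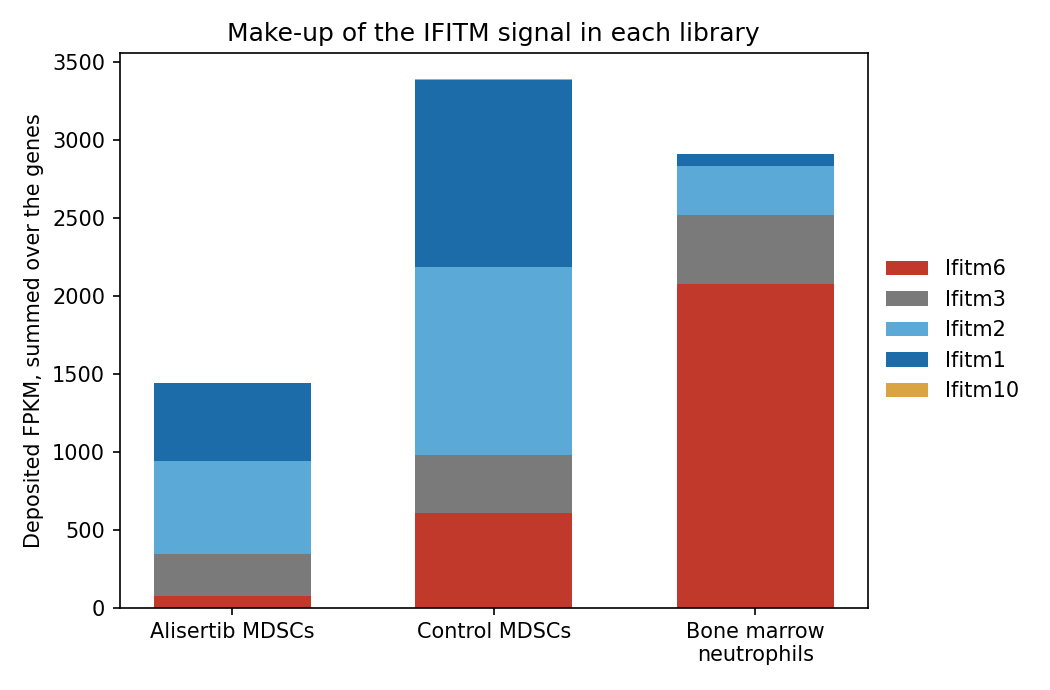
Deposited FPKM of the 5 IFITM genes, stacked for alisertib MDSCs, control MDSCs and bone marrow neutrophils. Ifitm6 makes up 5.28% of the 1439 FPKM in alisertib MDSCs, 17.9% of the 3386 FPKM in control MDSCs and 71.3% of the 2911 FPKM in bone marrow neutrophils.

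The start regions of the cluster genes are shown because the genes are studied as interferon targets yet differed in their values. The letters GAAA, NN and GAAA in a row, the core of the interferon-stimulated response element (ISRE), were searched on both strands of RefSeq windows (GRCm38.p6) from 250 bases before a start to 50 after it. They were found in 3.44% of 32851 such windows. Among the 5 genes, the Ifitm2 and Ifitm3 windows held them, at 1 and 2 sites, and those of Ifitm1, Ifitm6 and Ifitm10 did not. The starts used for Ifitm1 (140968076) and Ifitm6 (141016892) lie inside the gene spans given above. The outer ends of those 2 spans, where transcripts may also start, were not searched. The 30-base stretches below are chr7:141010715-141010744 (minus strand, Ifitm3, beginning at the start site), chr7:140955980-140956009 (minus, Ifitm2), chr4:156200869-156200898 (minus, the ubiquitin-like gene Isg15) and chr19:34640783-34640812 (plus, Ifit1, matched on the other strand). Capitals mark matches, which overlap one another in Isg15.
Ifitm3: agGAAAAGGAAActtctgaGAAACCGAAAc
Ifitm2: agGAAAAGGAAAttgctagagaaagggcgg
Isg15: agGAAAAGGAAACCGAAACAGAAAatagct
Ifit1: agTTTCACTTTCcagtctcagtttcagttt
The Ifitm3, Ifitm2 and Isg15 stretches open with the same letters. Each stretch was cut to begin just before its first match, so much of this likeness is set by the search. Counted by gene, 3.99% of 27025 genes held the motif, as did 18 of 35 interferon-stimulated effector genes with a window and 1 of 16 neutrophil granule genes.

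Most of the Ifitm6 window is shown because the nearest count profiles to Ifitm6 included those of neutrophil genes, as described further on. Capitals mark its single match to TTNNGNAA, a loose form of the site of C/EBP factors, which drive neutrophil genes. That form was present in 40.7% of all windows. By gene, it was present in 44.1% of 27025 genes, in 13 of 16 granule genes and in 23 of 35 interferon-stimulated effector genes. The stretch is chr7:141016913-141017142 on the minus strand, the first 230 bases of the window, and lies inside the gene span given above.
Ifitm6: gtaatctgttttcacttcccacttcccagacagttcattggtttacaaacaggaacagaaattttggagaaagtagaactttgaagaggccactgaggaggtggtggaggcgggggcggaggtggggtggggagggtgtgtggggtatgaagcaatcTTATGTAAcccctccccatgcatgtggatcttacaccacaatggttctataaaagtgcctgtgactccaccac
The STAT site core TTCNNNGAA, present in 8.30% of windows, occurred once each in the Ifitm6 and Ifitm3 windows, in Ifitm6 in the part not printed and in Ifitm3 overlapping the second ISRE match. Ifitm3 also held TTNNGNAA, overlapping its first ISRE match, and the PU.1 letters GAGGAAGT occurred in none of the 5 genes' windows. A match is a description of letters, and a window without one says nothing of the factor.

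Alisertib MDSCs were compared with control MDSCs to ask how treatment related to the family. Across all genes, 1.18% were called lower and 1.80% higher (154 and 234 genes, but 82 and 431 with total counts as the scale), a call being a 95% counting interval that lies wholly beyond 2-fold. All 5 members had lower CPM in alisertib MDSCs. Ifitm6 and Ifitm1 were called lower and none was called higher; the members were picked on this comparison, so nothing is read from the count. Ifitm6 was 7.95-fold lower (7.42 to 8.55), and only 17 of the 13019 genes had a lower log2 ratio.

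Ifitm1 was 2.41-fold lower (2.36 to 2.47), but with total counts as the scale it was no longer called. Ifitm2 was 2.01-fold lower (1.95 to 2.06), with an interval that spans 2-fold. Ifitm3 was 1.39-fold lower (1.33 to 1.45). Ifitm10 had a log2 ratio of -0.30 with an interval that includes no difference (ratio 0.648 to 1.01).

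Ratios within a library do not depend on the scaling between libraries. Ifitm6 stood at 0.285 of Ifitm3 by FPKM in alisertib MDSCs, 1.63 in control MDSCs and 4.72 in bone marrow neutrophils. Relative to Ifitm3, its counts were 5.73-fold lower (5.28 to 6.22) in alisertib than in control MDSCs. Ifitm1 relative to Ifitm3 was 1.74-fold lower (1.66 to 1.82) and Ifitm2 relative to Ifitm3 1.44-fold lower (1.37 to 1.52). The cluster genes therefore differed from each other in how far they were lower.

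**Figure D3:**
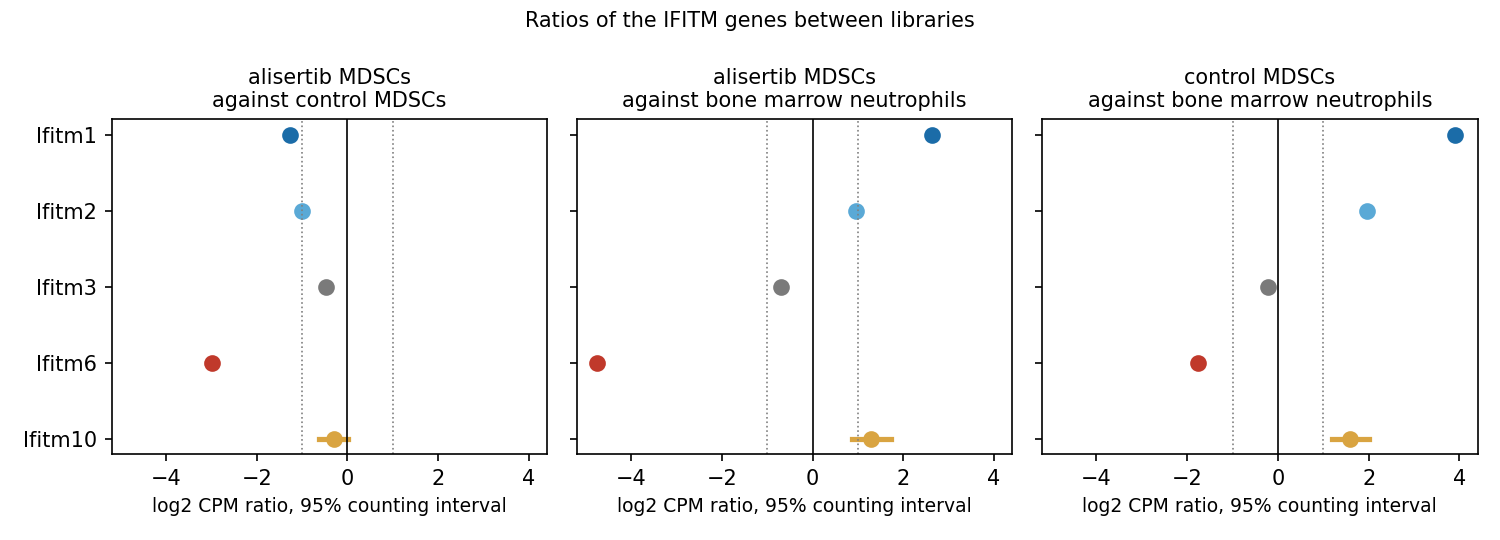
log2 CPM ratio of each IFITM gene in the 3 comparisons, with points for the ratio, bars for the 95% counting interval (hidden by the point where narrow) and dotted lines at 2-fold. Ifitm6 lies left of 0 in each comparison, at -2.99 for alisertib against control MDSCs, -4.74 for alisertib MDSCs against marrow and -1.75 for control MDSCs against marrow, where Ifitm1 lies at -1.27, 2.64 and 3.91.

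Genes of the interferon pathway were set beside the family in the same comparison. Of 11 listed interferon ligands, the 1 measured was the keratinocyte interferon gene Ifnk, with 4 counts in alisertib MDSCs, 1 in control MDSCs and 0 in bone marrow neutrophils. None of 6 receptor genes was called, and all 6 had log2 ratios below 0 (median -0.60, against 0.00 over all genes). With total counts as the scale, which adds 0.2685 to each, Il10rb (-0.128) and Ifnar2 (-0.267) no longer lie below 0. The interferon gamma receptor chain gene Ifngr1 stood at 92.7 CPM in alisertib MDSCs and 189.9 CPM in control MDSCs, and the type I receptor chain gene Ifnar1 at 205.2 CPM in alisertib MDSCs and 329.1 CPM in control MDSCs. None of 11 signal transducers was called either (median -0.22), with Irf9, the DNA-binding part of the ISGF3 complex, at 161.2 CPM in alisertib MDSCs and 270.1 CPM in control MDSCs. The inducible factor gene Irf7 stood at 197.3 CPM in alisertib MDSCs and 158.4 CPM in control MDSCs.

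The 44 interferon-stimulated effector genes lay on the other side of 0, with a median log2 ratio of 0.35, 31 above 0, 4 called higher and none lower. The 4 were Ifit1 (2.87-fold, 2.54 to 3.25), Ifit2 (3.59-fold), Ifit3 and Ifit3b, which encode RNA-binding antiviral proteins. Ifit3 and Ifit3b are near-identical copies and may not be separable. Each of the 4 cluster genes had a lower log2 ratio than all 44 effectors, of which Samd9l was lowest at -0.37, next to Ifitm3 at -0.47. The family was chosen because Ifitm6 was lower here while other interferon genes were higher. The contrast with the effectors is therefore a description too. Isg15 had 325.1 CPM in alisertib MDSCs against 201.9 CPM in control MDSCs. The ISRE letters were held by 18 of the 35 effector genes with a window, and how they relate to these ratios was not tested.

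Other antiviral restriction factors were mixed. Of 14 measured, 1 was called higher and none lower (median log2 ratio 0.04). The called gene was Ly6e, a lipid-anchored surface protein gene that acts on viral entry, at 171.4 CPM in alisertib MDSCs and 67.7 CPM in control MDSCs, 2.53-fold higher (2.38 to 2.70). Samhd1 stood at 622.4 CPM in alisertib MDSCs and 814.1 CPM in control MDSCs, and the ubiquitin ligase gene Trim25 at 807.7 CPM in alisertib MDSCs and 1069.7 CPM in control MDSCs. Neither was called. In the same pair of libraries the feedback inhibitors had 0 of 7 called, with a median of 0.05.

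Partners and modifiers of IFITM proteins, known mainly from human cells, had 2 of 14 called higher and none lower (median log2 ratio 0.28). Among them was the complement receptor gene Cr2, with 32 counts in alisertib MDSCs and 6 in control MDSCs. Both called genes are also on the B cell marker list, of which 8 of 9 were called higher in this comparison. Vcp, which takes part in IFITM3 turnover, stood at 138.2 CPM in alisertib MDSCs and 82.5 CPM in control MDSCs and was not called.

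Genes close to the family on chromosome 7 were set beside it. Of 9 genes within 100 kb of the cluster that passed the filter, the related Ifitm5 among them, none was called, and the median log2 ratio was -0.09. Ric8a stood at 63.8 CPM in alisertib MDSCs and 80.5 CPM in control MDSCs, and the proteasome subunit gene Psmd13 at 39.1 CPM in alisertib MDSCs and 42.1 CPM in control MDSCs. Near Ifitm10, 1 of 4 was called lower. It was Lsp1, an actin-binding gene of leukocytes, at 241.4 CPM in alisertib MDSCs and 522.8 CPM in control MDSCs (2.17-fold lower, 2.09 to 2.24). The protease gene Ctsd stood at 3173 CPM in alisertib MDSCs and 3509 CPM in control MDSCs. Of 9 other dispanin genes 4 were measured, and the 1 that passed the filter was Ifitm5, which had a log2 ratio of -0.68. Total counts shift every log2 ratio of this comparison by 0.27, which exceeds the size of the medians of the transducers and of the cluster's neighbours, so their sign turns with the scale, while the medians of the receptors and effectors keep theirs.

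**Figure D4:**
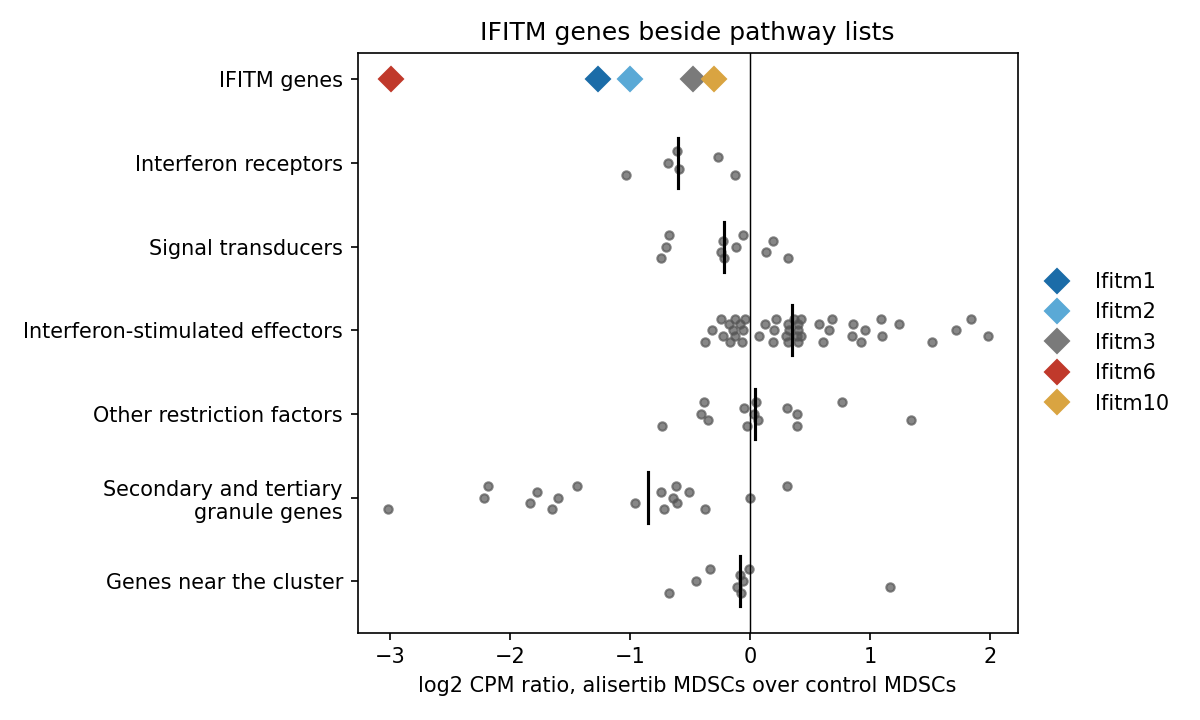
log2 CPM ratio of alisertib over control MDSCs for the 5 IFITM genes (diamonds) and for the genes of 6 lists (grey points, 1 per gene, spread vertically for sight only), with black bars at list medians. The 44 interferon-stimulated effectors (median 0.35) lie right of the 4 cluster genes, and the granule genes (median -0.85) reach as far left as Ifitm6. The contrast of Ifitm6 with other interferon genes was the reason for choosing the family, so it is a description.

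Genes of the later neutrophil granules were among those called lower in the same library as Ifitm6. A list of 18 neutrophil genes, mostly for proteins of the secondary and tertiary granules, had 8 called lower and 0 called higher (median log2 ratio -0.85). In that list only Ngp, at 185.7 CPM in alisertib MDSCs and 1509 CPM in control MDSCs, had a lower log2 ratio than Ifitm6, while the protease gene Mmp9 had the highest (0.31) and was not called. The 10 primary granule genes had a median log2 ratio of 0.17, 6 above 0 and 1, Serpinb1a, called lower. Their highest log2 ratio was 1.87, in a gene not called because its counting interval reached below 2-fold. Against marrow their medians were -3.93 in alisertib and -3.60 in control MDSCs, with 8 and 9 called lower and 1 higher in each. Over all genes, 22.3% and 22.9% were called lower there. The later granule genes had medians of -4.52 and -2.96 against marrow. The summed neutrophil markers stood at 14935 CPM in alisertib MDSCs and 32855 CPM in control MDSCs, and their part in the Ifitm6 difference was not tested.

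Alisertib MDSCs were then set against bone marrow neutrophils, where 18.7% of all genes were called higher and 22.3% lower. Of the 5 members, Ifitm1 was called higher and Ifitm6 lower. Ifitm1 was 6.22-fold higher (5.93 to 6.52). Ifitm6 was 26.8-fold lower (25.1 to 28.7), with 228 of 13019 genes at a lower log2 ratio. Ifitm2 (ratio 1.95, 1.88 to 2.02), Ifitm10 (2.44, 1.83 to 3.29) and Ifitm3 (0.617, 0.593 to 0.641) were not called.

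Control MDSCs differed from bone marrow neutrophils by calls at 18.3% of genes higher and 22.9% lower. Of the 5 members, 3 were called higher and 1 lower. Ifitm1 was 15.0-fold higher (14.3 to 15.7), Ifitm2 3.91-fold higher (3.79 to 4.05) and Ifitm10 3.01-fold higher (2.28 to 4.04). Ifitm10 was no longer called with total counts or with FPKM plus 1. Ifitm6 was 3.37-fold lower (3.28 to 3.46), and Ifitm3, at a ratio of 0.857 (0.826 to 0.889), was not called.

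Both tumour libraries are set against the same marrow library, so these comparisons are not independent. Relative to Ifitm3, Ifitm1 counts were 10.1-fold higher (9.49 to 10.7) in alisertib MDSCs and 17.5-fold higher (16.5 to 18.5) in control MDSCs than in marrow. Relative to Ifitm1, Ifitm6 counts were 166.8-fold lower (153.7 to 181.0) in alisertib MDSCs and 50.6-fold lower (48.0 to 53.3) in control MDSCs than in marrow. Neighbouring genes of 1 cluster thus differed in opposite directions between tumour and marrow cells.

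The effector list had 24 of 44 genes called higher and 3 lower in alisertib MDSCs against marrow (median log2 ratio 1.43, against -0.09 over all genes). In control MDSCs against marrow it had 19 higher and 4 lower (median 0.98, against -0.14). Ifitm6 lay below all 44 in the first and above 2 of them in the second, while Ifitm1 lay above 34 in the first and 41 in the second. Of the receptors, Ifnar1 was called higher than in marrow in both tumour libraries, at 205.2 CPM in alisertib MDSCs and 329.1 CPM in control MDSCs against 82.2 CPM in marrow. Ifnlr1, a chain of the interferon lambda receptor that neutrophils carry, was called lower in both, at 15.5 CPM in alisertib MDSCs and 23.5 CPM in control MDSCs against 146.0 CPM in marrow. Among modifiers, Zmpste24, a protease that works with IFITM proteins, stood at 12.9 CPM in alisertib MDSCs and 10.1 CPM in control MDSCs against 500.6 CPM in marrow.

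The genes whose profile over the 3 libraries was nearest to that of Ifitm6 included neutrophil genes. Likeness was the Euclidean distance between log2 CPM centred over 3 libraries, among 7356 genes with at least 10 CPM in a library. Retnlg, a resistin-like secreted protein gene of neutrophils, was nearest (distance 0.56), at 296.0 CPM in alisertib MDSCs, 1468 CPM in control MDSCs and 4956 CPM in bone marrow neutrophils. The phospholipase-like gene Pnpla1 (0.71), the peptidoglycan-binding granule gene Pglyrp1 (0.83) and the neutrophil surface glycoprotein gene Cd177 (0.84) followed. Cd177 stood at 168.5 CPM in alisertib MDSCs, 601.7 CPM in control MDSCs and 3544 CPM in bone marrow neutrophils. Also among the 10 nearest were the membrane scaffold gene Flot2 (0.87), R3hdm4 (0.88), the actin-binding gene Cnn2 (0.88), Fry (1.01) and the transporter gene Abca13 (1.04).

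The granule protease gene Mmp8 ranked 16th and the iron-sequestering gene Lcn2 22nd by that distance, while Ltf ranked 899th and Mmp9 1360th. The other cluster genes lay far off, with Ifitm3 at 2289th, Ifitm2 at 5810th and Ifitm1 at 6979th. Some genes of the later granule list lay farther off than Ifitm3. These were Fcnb (3606th), Adam8 (4054th), the cathelicidin gene Camp (4345th) and Slpi (4526th). Compared with its 10 nearest genes, Ifitm6 had the lowest centred value in the alisertib library (-2.58) and the highest in the control library (0.41). The nearest profiles to Ifitm3 were those of Exoc1, Clpx, Dnm2, Sec24c and Gpr146, at distances of 0.013 to 0.018. With FPKM plus 1 as the scale, 0 of these 5 were among the 5 nearest to Ifitm3, and 7 of the 10 nearest to Ifitm6 were kept. With 3 libraries a near profile is a description, and it says nothing of shared control.

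**Figure D5:**
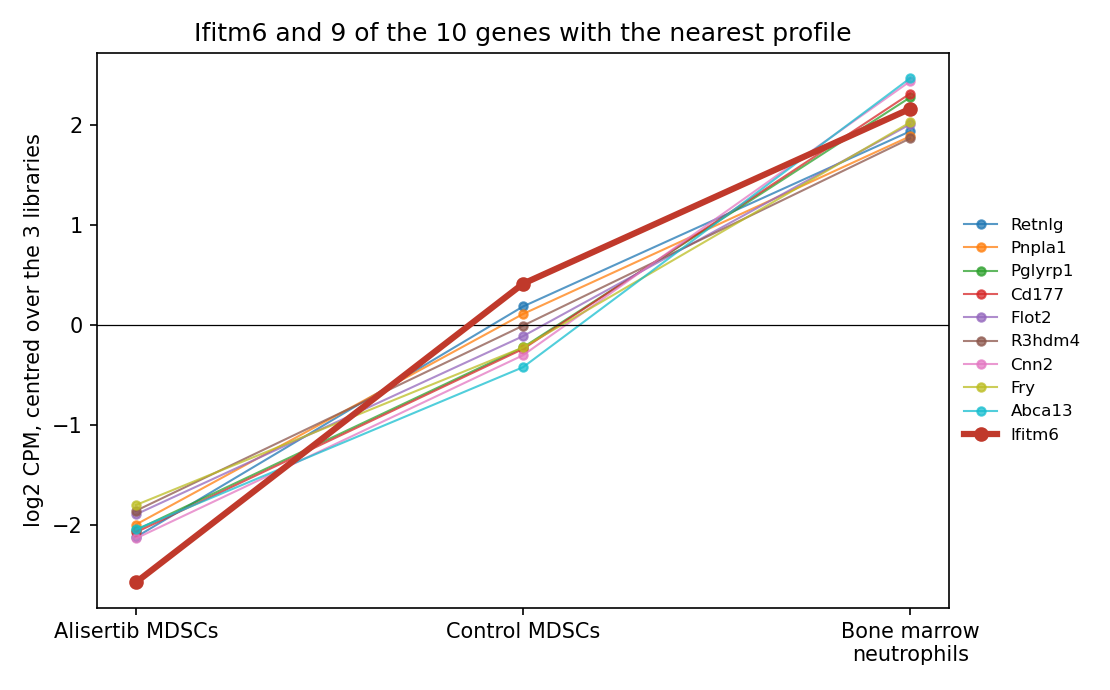
Profiles of Ifitm6 (thick line) and 9 of its 10 nearest genes as log2 CPM centred over the 3 libraries, in alisertib MDSCs, control MDSCs and bone marrow neutrophils. All lie below 0 in alisertib MDSCs and above 0 in marrow, and Ifitm6 lies lowest in alisertib MDSCs at -2.58.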

How the data were processed

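RNA sequencing of 3 libraries was used, 1 per group. Raw counts for 19723 genes and FPKM for 23327, of which 19173 are in both tables, were deposited by the authors. Per the submitters' processing notes, the tools were CASAVA 1.8 and STAR 2.5.1b and the builds mm9 and mm10, but which step used which is unclear. How reads were counted, against which annotation and with which strand setting, is not given in the sources used here. Symbols and positions came from GENCODE M21 on GRCm38.

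Deposited counts were divided by TMM-scaled totals (edgeR 4.0.16, R 4.3.3) in units of 1e6 to give CPM. Genes with at least 1 CPM in at least 1 library were kept. For log2 ratios, 0.5 was added to every deposited count. Intervals at 95% followed Clopper and Pearson (exact, given the summed count), and the interval of a ratio between 2 genes was Woolf's. Both cover counting error only. A gene counted as called if its whole interval lay at or beyond 2-fold. With 1 library per group no p-value was computed. The calling step was tested on simulated counts with counting error only, which cannot show how calls behave under a spread between libraries. Alternatives were total counts, DESeq2 1.42.0 size factors, scaling without the 50 most abundant genes, no filter, a 10 CPM filter, a bound of 1.5-fold, and deposited FPKM plus 1 or plus 0.1.

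The members and all gene lists were chosen with earlier results of these data known. The rule for named genes took the members, other Ifitm symbols, the measured interferon ligands and receptors, up to 6 genes of each other list and within 100 kb of the cluster or of Ifitm10 (called in alisertib against control first, then the most abundant), the 10 genes nearest to Ifitm6 and 5 nearest to Ifitm3 in profile without unnamed gene models, and the 2 most abundant of each marker list. Not every such gene is printed, and some results are not reported here.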

Additional observations from a re-analysis of the deposited data

How the results depend on the processing

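Each of the 5 members kept the sign of its log2 ratio in every comparison and alternative that gave a value, and 106 of 117 such values kept their call, 8 gained one and 3 lost one. That tally includes values fixed in advance. The filter settings leave the ratio and call of a kept member unchanged, and the 1.5-fold bound can neither turn a sign nor remove a call. The log2 ratio of Ifitm6 ranged from -3.05 to -2.72 in alisertib against control MDSCs, from -4.77 to -4.71 in alisertib MDSCs against marrow and from -1.99 to -1.67 in control MDSCs against marrow, and it stayed called. Total counts shifted all log2 ratios of alisertib against control MDSCs by 0.27 and of control MDSCs against marrow by -0.24. With them 1 member was called lower in alisertib against control MDSCs (3 with DESeq2 size factors, FPKM plus 1, FPKM plus 0.1 or the 1.5-fold bound, each adding Ifitm2), 431 genes higher and 82 lower, 7 effectors higher, and 0 granule genes higher in control MDSCs against marrow. A bound of 1.5-fold gave 3 members higher and 2 lower in alisertib MDSCs against marrow, 617 genes higher and 640 lower and 9 effectors higher in alisertib against control MDSCs, and 7 and 9 effectors lower in alisertib and in control MDSCs against marrow. FPKM plus 0.1, called on the ratio alone, gave 2 members higher and 5 effectors lower in alisertib MDSCs against marrow, and 607 genes higher and 452 lower in alisertib against control MDSCs, where FPKM plus 1 gave 85 higher. The 10 CPM filter, which tests fewer genes, left 66 genes higher in alisertib against control MDSCs, 1482 higher in alisertib MDSCs against marrow, and 1564 higher and 1956 lower in control MDSCs against marrow. Of the 5 genes nearest to Ifitm3, 0 were among its nearest with FPKM plus 1, against 7 of the 10 nearest to Ifitm6. Beyond the total counts and the constructions named, the cause was not tested. Ifitm10 dropped out under the 10 CPM filter, and with 1 library per group no library could be left out. No paired analysis was possible because each group had 1 library.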
